A study of Mus musculus with 15 samples.

Results

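Conventional dendritic cells fall into 2 lineages, and cDC1, which take up dead cells and cross-present their antigens to CD8+ T cells, are recognised by a small set of surface molecules. The RNA of 8 of these markers was followed here: Xcr1, Clec9a, Cadm1, Btla, Cd8a, Cd24a, Ly75 and Clec1a. They were taken by name from 19938 genes on the array, and each was read from 1 probeset. In the intestinal lamina propria (LP), cDC1 are found among CD103+CD11b- DCs, and CD11b+ DCs belong mostly to the cDC2 lineage. DCs that lack both CD103 and CD11b carry no such assignment from their sort markers, and the levels of the 8 genes in them are the main subject of what follows.

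The 15 arrays covered 5 populations of 3 arrays each: CD103-CD11b- DCs, CD103+CD11b+ DCs, CD103-CD11b+ DCs, CD103+CD11b- DCs and CD64+ mϕ. All came from the LP of the small intestine of WT mice at steady state, with no treatment or genetic change in any group. The DCs were sorted as CD64- cells. The study's methods state young adult C57BL/6 mice of both sexes, and neither they nor the labels say how many mice made up a sample, so p-values measure the spread between these samples. The study set the CD103-CD11b- DCs aside from its own comparison of subsets because the subset was small, varied in size and was heterogeneous in phenotype, with a possible origin in isolated lymphoid follicles. Values are log2 signals of the array after Robust Multi-array Average (RMA) normalization, so a log2 difference of 1 is a doubling of signal, and the median of an array lay between 4.74 and 4.86. A gene passed when its limma adjusted p was under 0.01 and its log2 difference was over 1 in either direction. Because signals of different genes depend on their probes, levels are compared between populations and not between genes.

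The sort was visible in the RNA. Itgae, which encodes CD103, averaged 8.76 ± 0.18 on the CD103-CD11b- arrays, 10.38 ± 0.16 on the CD103+CD11b+ arrays, 7.84 ± 0.42 on the CD103-CD11b+ arrays, 10.90 ± 0.06 on the CD103+CD11b- arrays and 5.09 ± 0.20 on the mϕ arrays (SD, n = 3 each). Itgam, which encodes CD11b, averaged 6.64 ± 0.33 in CD103-CD11b- DCs, below both CD11b+ subsets (9.56 and 9.53) and above CD103+CD11b- DCs (4.93 ± 0.16). Itgam thus passed as lower than in CD103+CD11b+ DCs (log2 difference -2.92) and as higher than in CD103+CD11b- DCs (1.71). Fcgr1, which encodes CD64, averaged 4.02 in CD103-CD11b- DCs and 8.92 in mϕ.

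The start regions of the 4 members that separated CD103-CD11b- DCs from both CD11b+ subsets are shown because these genes moved together. Promoters of 5 of the 8 members were matched in the RefSeq table for GRCm38.p6, each running from 250 bases before the start of the gene to 50 bases after it. Capitals mark matches to GAGGAA, the core bound by Ets factors such as PU.1, or to CAGCTG, an E-box, on either strand.
Xcr1 (chr9:123861980-123862279, minus strand): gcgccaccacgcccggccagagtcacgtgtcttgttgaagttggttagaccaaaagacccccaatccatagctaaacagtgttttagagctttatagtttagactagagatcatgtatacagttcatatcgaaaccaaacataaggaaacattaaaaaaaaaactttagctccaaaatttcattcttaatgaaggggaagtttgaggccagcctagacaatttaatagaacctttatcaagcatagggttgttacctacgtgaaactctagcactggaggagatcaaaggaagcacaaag
Clec9a (chr6:129408612-129408911, plus strand): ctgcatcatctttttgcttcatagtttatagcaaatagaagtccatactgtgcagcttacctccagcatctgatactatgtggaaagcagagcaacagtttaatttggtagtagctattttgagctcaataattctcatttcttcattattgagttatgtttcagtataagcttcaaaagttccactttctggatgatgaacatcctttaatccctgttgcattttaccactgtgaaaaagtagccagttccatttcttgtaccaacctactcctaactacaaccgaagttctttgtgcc
Btla (chr16:45224087-45224386, plus strand): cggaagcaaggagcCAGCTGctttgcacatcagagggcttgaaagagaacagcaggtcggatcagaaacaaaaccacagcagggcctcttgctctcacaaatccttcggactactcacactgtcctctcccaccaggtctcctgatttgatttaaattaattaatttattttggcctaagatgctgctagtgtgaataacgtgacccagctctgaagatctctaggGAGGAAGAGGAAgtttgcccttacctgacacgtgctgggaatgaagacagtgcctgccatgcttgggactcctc
Cd8a (chr6:71373177-71373476, plus strand): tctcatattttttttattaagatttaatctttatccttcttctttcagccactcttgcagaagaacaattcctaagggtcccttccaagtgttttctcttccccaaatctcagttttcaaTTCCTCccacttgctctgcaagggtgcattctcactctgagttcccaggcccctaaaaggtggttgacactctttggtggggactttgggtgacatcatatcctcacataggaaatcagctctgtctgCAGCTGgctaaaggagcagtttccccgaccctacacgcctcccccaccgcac
Btla had 2 adjoining matches to GAGGAA and 1 to CAGCTG, and Cd8a had 1 of each. Xcr1, Clec9a and Ly75 had none. The AP-1 motif TGANTCA and an IRF motif (GAAA, any 2 bases, GAAA), searched on both strands, were in none of the 5 windows. Over all 32851 promoters of this length, GAGGAA was in 28.3%, CAGCTG in 16.3%, TGANTCA in 7.81% and the IRF motif in 3.44%.

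In CD103-CD11b- DCs, 4 of the 8 members were higher than in CD103+CD11b+ DCs and the same number passed against CD103-CD11b+ DCs. These were Xcr1, Clec9a, Btla and Cd8a in both comparisons, and no member was lower. Of all genes, 0.908% passed as higher and 1.02% as lower against CD103+CD11b+ DCs, and 0.356% and 0.451% against CD103-CD11b+ DCs. The median log2 difference of the members was 1.21 against CD103+CD11b+ DCs and 1.25 against CD103-CD11b+ DCs, beside medians of -0.01 and -0.02 over all genes. Against CD103+CD11b- DCs, 7 members were lower and none was higher, where 1.05% of all genes passed as lower and 1.61% as higher. All members except Cd24a stand in the list of CD103+CD11b- genes that the study drew by setting those arrays against both CD11b+ subsets. High CD103+CD11b- arrays and low CD11b+ arrays thus took part in the choice, so none of these counts and medians against the other 3 DC subsets is independent evidence. Without the array of each population richest in pancreatic acinar RNA, the counts were 4, 4 and 6, with Cd24a in place of Btla against CD103-CD11b+ DCs. In a sorted population, fewer cells with a gene and less of its RNA in each cell cannot be told apart.

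**Figure D1:**
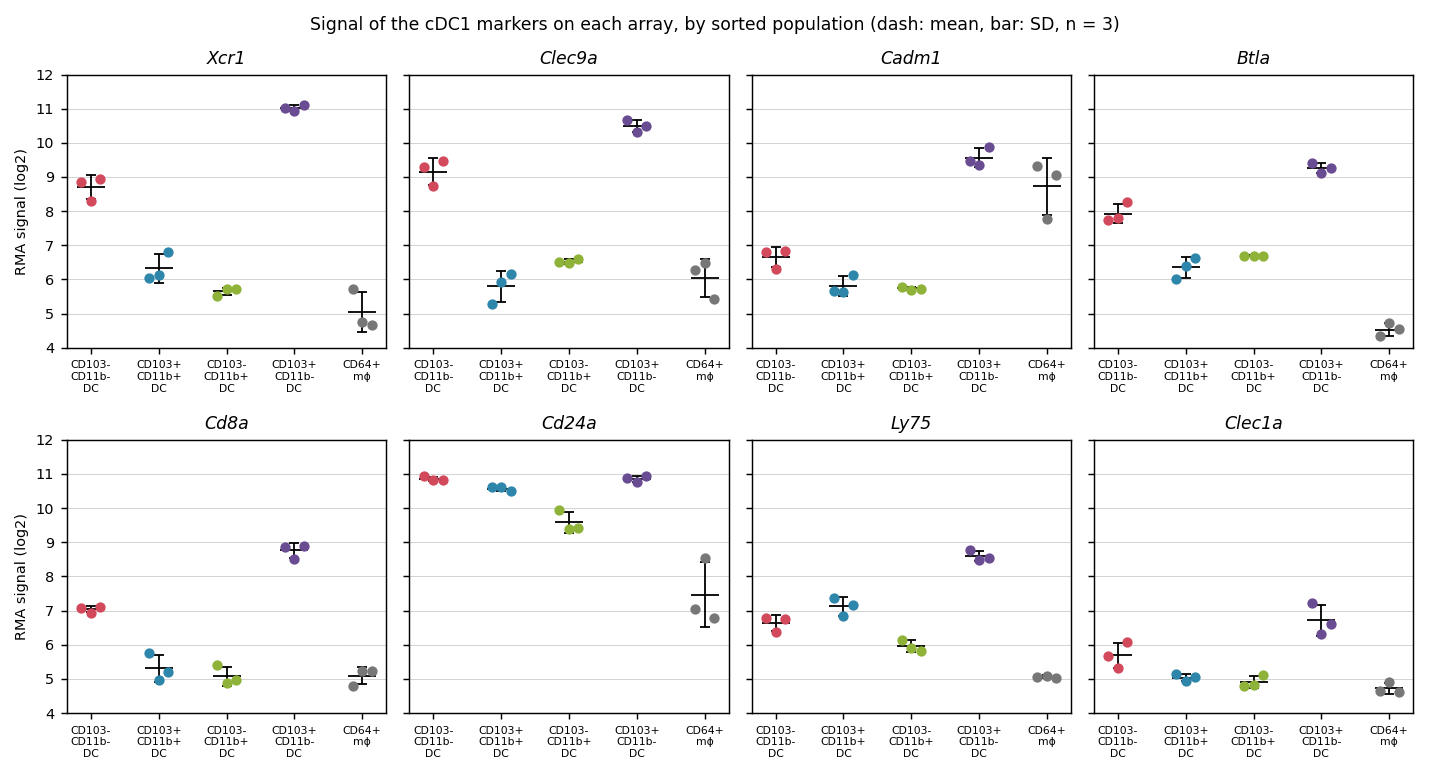
Log2 signal (y axis) of each member on each array (points, 3 per population) in the 5 sorted populations (x axis), with the mean and SD. For Xcr1, Clec9a, Btla and Cd8a the CD103-CD11b- arrays lie between both CD11b+ subsets and CD103+CD11b- DCs; Cadm1 is also high in mϕ, and Cd24a is low in mϕ.

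Xcr1 encodes the receptor for the chemokine XCL1, which NK cells and activated CD8+ T cells release. Its log2 signal was 8.84, 8.30 and 8.95 on the CD103-CD11b- arrays, 6.05, 6.12 and 6.80 on the CD103+CD11b+ arrays, 5.52, 5.72 and 5.71 on the CD103-CD11b+ arrays, 11.03, 10.92 and 11.12 on the CD103+CD11b- arrays and 5.72, 4.75 and 4.66 on the mϕ arrays. The CD103-CD11b- arrays overlapped with no other population and lay midway, above all CD11b+ DC and mϕ arrays and below all CD103+CD11b- arrays. The log2 difference was 2.37 against CD103+CD11b+ DCs (SE 0.26, adjusted p = 3.0e-05), 3.04 against CD103-CD11b+ DCs (adjusted p = 8.9e-06) and -2.33 against CD103+CD11b- DCs (adjusted p = 2.1e-05). On the scale of fold change this was 5.18-fold higher than in CD103+CD11b+ DCs and 5.02-fold lower than in CD103+CD11b- DCs. The 2 CD11b+ subsets did not overlap for Xcr1, and their log2 difference of 0.67 did not pass (adjusted p = 0.0739).

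Clec9a encodes DNGR-1, a C-type lectin that binds exposed actin filaments of dead cells. Its signal was 9.30, 8.73 and 9.46 on the CD103-CD11b- arrays, 5.29, 5.93 and 6.17 on the CD103+CD11b+ arrays, 6.50, 6.47 and 6.60 on the CD103-CD11b+ arrays, 10.66, 10.31 and 10.49 on the CD103+CD11b- arrays and 6.27, 6.47 and 5.42 on the mϕ arrays. It was the member for which CD103-CD11b- DCs stood farthest above CD103+CD11b+ DCs, with a log2 difference of 3.37 (SE 0.26, adjusted p = 1.5e-06), or 10.3-fold. Against CD103-CD11b+ DCs the difference was 2.64 (adjusted p = 4.1e-05), and against CD103+CD11b- DCs it was -1.32 (adjusted p = 0.00379). The difference from CD103+CD11b- DCs did not pass without CD103-CD11b- replicate 2, the lowest array of its population (-1.10, adjusted p = 0.0242), or without CD103+CD11b- replicate 1 or 3 (-1.24 and -1.32). The annotated span of Clec12b covers Clec9a, and the labelled cDNA was double-stranded, so signal from the 2 genes on the same stretch could not be told apart by strand. Clec12b itself had a signal of 3.86 to 4.30 on all 15 arrays, below the median of every array.

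Btla encodes an inhibitory receptor of the immunoglobulin family that binds HVEM and is also carried by B and T cells. Its signal was 7.74, 7.79 and 8.26 on the CD103-CD11b- arrays, 6.01, 6.39 and 6.64 on the CD103+CD11b+ arrays, 6.70, 6.69 and 6.70 on the CD103-CD11b+ arrays, 9.41, 9.11 and 9.25 on the CD103+CD11b- arrays and 4.33, 4.72 and 4.55 on the mϕ arrays. The 5 populations formed 5 separate ranges, with mϕ lowest, and every DC population was higher than mϕ. CD103-CD11b- DCs differed by 1.58 from CD103+CD11b+ DCs (SE 0.16, adjusted p = 2.1e-05), by 1.23 from CD103-CD11b+ DCs (adjusted p = 5.3e-04) and by -1.33 from CD103+CD11b- DCs (adjusted p = 6.4e-05). Between the CD11b+ subsets Btla did not pass (log2 difference -0.35, adjusted p = 0.317).

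Cd8a encodes the α chain of CD8, which cDC1 of mouse lymphoid organs carry as a homodimer. Its signal was 7.08, 6.94 and 7.10 on the CD103-CD11b- arrays, 5.75, 4.97 and 5.21 on the CD103+CD11b+ arrays, 5.40, 4.88 and 4.98 on the CD103-CD11b+ arrays, 8.85, 8.51 and 8.90 on the CD103+CD11b- arrays and 4.80, 5.24 and 5.22 on the mϕ arrays. The CD103-CD11b- arrays agreed most closely for this member after Cd24a (SD 0.09), while both CD11b+ subsets and mϕ overlapped with each other. The log2 difference was 1.73 against CD103+CD11b+ DCs (SE 0.19, adjusted p = 3.8e-05), 1.95 against CD103-CD11b+ DCs (adjusted p = 3.5e-05) and -1.72 against CD103+CD11b- DCs (adjusted p = 2.4e-05). Cd8b1, the β chain of the CD8 heterodimer of T cells, was also higher in CD103-CD11b- DCs than in every other DC subset, with 5.86 ± 0.13 there, 4.86 ± 0.16 on the CD103+CD11b+ arrays, 4.72 ± 0.12 on the CD103-CD11b+ arrays and 4.70 ± 0.23 on the CD103+CD11b- arrays. Cd3d and Cd3e, chains of the T cell receptor complex, averaged 3.99 and 5.36 in CD103-CD11b- DCs, against 3.99 and 5.61 in CD103+CD11b- DCs. Other T cell markers were higher against the CD103+CD11b- subset, with log2 differences of 3.29 for Thy1 (means 9.21 and 5.91), 2.61 for Cd28 (7.59 and 4.99) and 1.84 for Cd2 (6.24 and 4.40), and their part in the Cd8a and Cd8b1 differences was not tested.

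**Figure D2:**
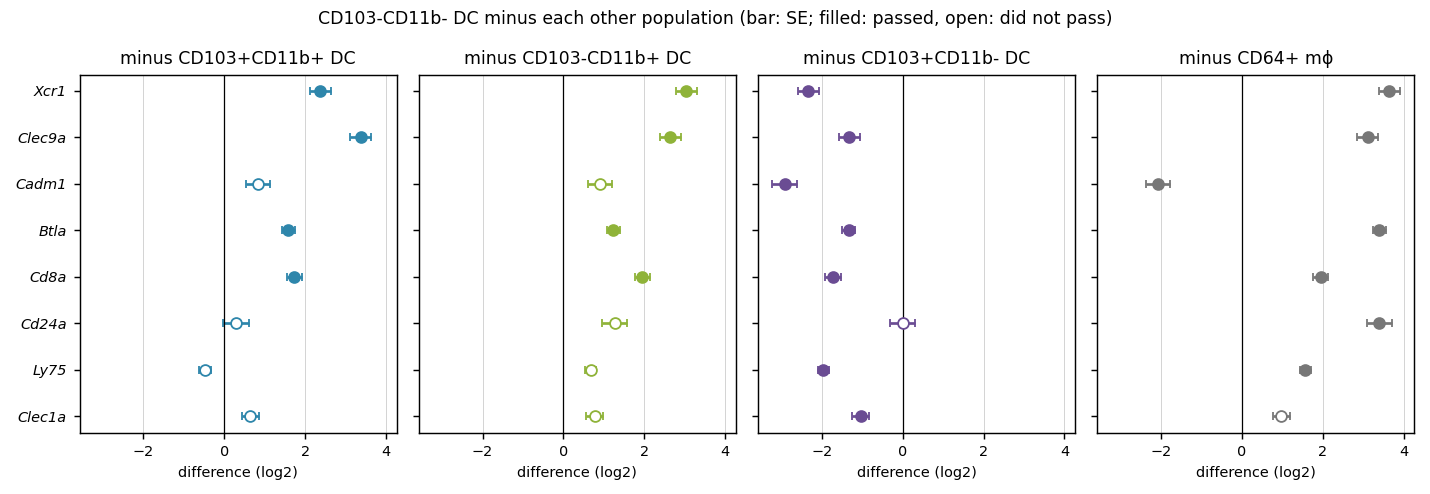
Log2 difference (x axis) of CD103-CD11b- DCs minus each of the other 4 populations (panels) for the 8 members (y axis), with the SE of the limma fit; filled points passed and open points did not. Xcr1, Clec9a, Btla and Cd8a lie above 0 against both CD11b+ subsets and below 0 against CD103+CD11b- DCs, and Cadm1 lies below 0 against mϕ (-2.08).

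Cadm1 encodes an adhesion molecule that binds CRTAM on activated T cells. Its signal was 6.81, 6.31 and 6.82 on the CD103-CD11b- arrays, 5.67, 5.62 and 6.14 on the CD103+CD11b+ arrays, 5.79, 5.69 and 5.73 on the CD103-CD11b+ arrays, 9.47, 9.36 and 9.88 on the CD103+CD11b- arrays and 9.33, 7.78 and 9.07 on the mϕ arrays. The CD103-CD11b- arrays lay above every CD11b+ DC array, but the log2 differences of 0.84 and 0.91 did not pass (adjusted p = 0.136 and 0.145). Against CD103+CD11b- DCs the log2 difference of Cadm1 was -2.92 (SE 0.30, adjusted p = 1.2e-05), which was 7.58-fold and the largest such difference of the 8 members. It was the only member of the 8 that passed as lower in CD103-CD11b- DCs than in mϕ (-2.08, adjusted p = 1.1e-04). The mϕ array of replicate 2 was well below the other two, and it was also the mϕ array with the highest pancreatic and epithelial signals, and their part in its Cadm1 signal was not tested.

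Ly75 encodes DEC-205, an endocytic receptor that migratory DCs of several kinds also carry. Its signal was 6.79, 6.37 and 6.74 on the CD103-CD11b- arrays, 7.37, 6.83 and 7.15 on the CD103+CD11b+ arrays, 6.15, 5.90 and 5.83 on the CD103-CD11b+ arrays, 8.76, 8.48 and 8.54 on the CD103+CD11b- arrays and 5.06, 5.09 and 5.02 on the mϕ arrays. CD103-CD11b- DCs lay below CD103+CD11b+ DCs by 0.48 and above CD103-CD11b+ DCs by 0.67, with no overlap and neither difference passing (adjusted p = 0.0566 and 0.0159). Ly75 was the only member of the 8 that passed between the CD11b+ subsets, being higher in CD103+CD11b+ DCs by 1.16 (SE 0.14, adjusted p = 0.00154), where 0.231% of all genes passed as higher and 0.306% as lower. That call was lost without CD103-CD11b+ replicate 3 (1.09, adjusted p = 0.0105), the array of its population richest in pancreatic RNA. Against CD103+CD11b- DCs, Ly75 in CD103-CD11b- DCs was lower by 1.96 (SE 0.14, adjusted p = 3.5e-07).

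Cd24a encodes CD24, a small glycosylated surface protein that B cells and epithelial cells also carry. Its signal was 10.93, 10.83 and 10.83 on the CD103-CD11b- arrays, 10.62, 10.61 and 10.50 on the CD103+CD11b+ arrays, 9.95, 9.40 and 9.42 on the CD103-CD11b+ arrays, 10.89, 10.76 and 10.93 on the CD103+CD11b- arrays and 7.06, 8.55 and 6.78 on the mϕ arrays. It was higher in every DC population than in mϕ, and CD103-CD11b- and CD103+CD11b- DCs overlapped, with a log2 difference of 0.00 (SE 0.31, adjusted p = 0.999). The difference of 1.27 from CD103-CD11b+ DCs did not pass (adjusted p = 0.0381). It passed without mϕ replicate 2 (adjusted p = 5.8e-05), the mϕ array with the highest Cd24a, and in no other fit that left out 1 array. The mϕ arrays enter this comparison only through the shared estimate of the spread. The difference also passed by limma on the 2 populations alone (adjusted p = 0.00514) and with array weights (adjusted p = 0.00478). Between the CD11b+ subsets Cd24a had an adjusted p of 0.0028 but a log2 difference of 0.99, just under the limit of 1.

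Clec1a encodes a C-type lectin receptor and neighbours Clec9a in the natural killer gene complex. Its signal was 5.68, 5.32 and 6.07 on the CD103-CD11b- arrays, 5.13, 4.95 and 5.05 on the CD103+CD11b+ arrays, 4.80, 4.82 and 5.11 on the CD103-CD11b+ arrays, 7.22, 6.32 and 6.60 on the CD103+CD11b- arrays and 4.64, 4.91 and 4.61 on the mϕ arrays. The CD11b+ subsets and mϕ were near the array median. CD103-CD11b- DCs did not overlap with either CD11b+ subset, but the differences of 0.64 and 0.77 did not pass (adjusted p = 0.085 and 0.0583). The log2 difference of -1.03 from CD103+CD11b- DCs passed (adjusted p = 0.00415) and was lost without replicate 1 or 2 of CD103-CD11b- DCs or replicate 1 or 3 of CD103+CD11b- DCs (-0.77 to -1.08, adjusted p = 0.0119 to 0.0256). Of the other C-type lectins of this complex, Clec7a, the β-glucan receptor Dectin-1, ran the other way: it averaged 8.0 ± 0.23 in CD103-CD11b- DCs and 6.25 ± 0.32 in the CD103+CD11b- subset, and was higher in CD103-CD11b- DCs by 1.75 (adjusted p = 2.9e-05). Of 12 genes of this complex, members included, 3 passed as higher and 2 as lower between these subsets. Clec7a stands in the study's list of genes shared by the CD11b+ subsets, which the CD103+CD11b- arrays helped to choose, so its difference is not independent evidence. Clec1b, a platelet and myeloid lectin, was near 4 in every DC subset and at 7.65 ± 0.41 in mϕ.

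Set against mϕ, 6 members were higher in CD103-CD11b- DCs and Cadm1 was lower, where 2.57% of all genes passed as higher and 3.73% as lower. Clec1a did not pass because its log2 difference of 0.97 was under 1 (adjusted p = 0.00297). In CD103+CD11b+ DCs 4 members were higher than in mϕ (Xcr1, Btla, Cd24a and Ly75) and Cadm1 was lower by 2.92, beside 2.34% and 3.34% of all genes. The Xcr1 call among these, a log2 difference of 1.28, did not pass without CD103+CD11b+ replicate 3 (adjusted p = 0.0124) or mϕ replicate 3 (adjusted p = 0.0116). In CD103-CD11b+ DCs 2 members were higher (Btla and Cd24a) and Cadm1 was lower by 2.99, beside 2.16% and 3.02%. In CD103+CD11b- DCs, whose arrays took part in the choice as did those of both CD11b+ subsets, 7 members stood higher and 0 lower, beside 2.99% and 4.04%, and Cadm1 did not pass there (log2 difference 0.84, adjusted p = 0.0597).

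The study compared the CD11b+ subsets with CD103+CD11b- DCs on the arrays it used to choose its list, so those differences are given without a test. CD103+CD11b+ DCs lay below CD103+CD11b- DCs by 4.70 for Xcr1, 4.69 for Clec9a, 3.76 for Cadm1, 3.45 for Cd8a, 2.91 for Btla, 1.67 for Clec1a, 1.48 for Ly75 and 0.28 for Cd24a on the log2 scale. The shares of all genes past both thresholds were 1.95% higher and 1.32% lower there, and 2.02% and 1.3% for CD103-CD11b+ DCs. In CD103-CD11b+ DCs the differences ran between -5.37 for Xcr1 and -1.27 for Cd24a.

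The place of CD103-CD11b- DCs between these poles differed among the members. Position was measured on the linear signal as a percentage of the distance from the mean of the 6 CD11b+ DC arrays to that of CD103+CD11b- DCs. Clec9a stood at 37.5% ± 10.7 (SD, n = 3 arrays), Btla at 29.6% (23.2%, 24.5% and 41.2% on its arrays), Clec1a at 27.3% ± 17.7, Cd8a at 23.7% ± 2.03 and Xcr1 at 17.6% ± 4.69. Cadm1 stood at 6.51% ± 2.67, and Ly75 at -0.474% ± 5.32, no farther from 0 than the spread between its arrays. On the log2 scale the values were larger and Xcr1 moved up the order, with 69.5% for Clec9a, 53.8% for Xcr1, 51.8% for Cd8a, 51.5% for Btla, 40.8% for Clec1a, 23.0% for Cadm1 and 4.63% for Ly75. Cd24a has no place on this scale because its CD103+CD11b- mean was not over 1 log2 unit above the CD11b+ mean. These values are a description, since the CD103+CD11b- arrays set the scale.

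**Figure D3:**
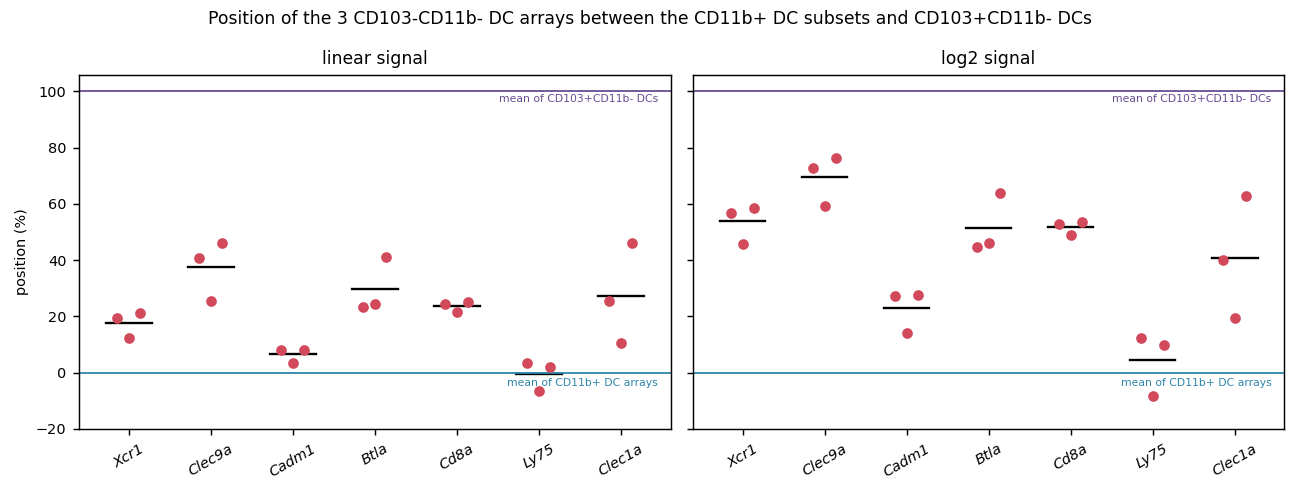
Position (y axis, percent) of each CD103-CD11b- DC array (points) and their mean (line) for 7 members (x axis), on the linear signal (left) and on log2 (right); the lower line is the mean of the 6 CD11b+ DC arrays and the upper line that of CD103+CD11b- DCs. Clec9a lies highest (37.5% linear, 69.5% log2), and Ly75 lies at the CD11b+ mean.

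Among 27 measured genes of another list of cDC1 genes, 9 passed as higher and 3 as lower in CD103-CD11b- DCs against the CD103+CD11b+ subset. Against the CD103-CD11b+ subset 8 passed, all of them higher, and against the CD103+CD11b- subset 18 passed, all of them lower. Many of these genes, Irf8, Tlr3, Snx22 and Gpr33 among them, stand in the same list of the study, so these counts carry the same limit. Itgae, which encodes the CD103 of the sort, is also counted among the genes lower than in both CD103+ subsets. Irf8, the transcription factor on which cDC1 depend, averaged 10.07 ± 0.03 on the CD103-CD11b- arrays, 7.48 ± 0.35 on the CD103+CD11b+ arrays, 7.85 ± 0.12 on the CD103-CD11b+ arrays and 11.54 ± 0.22 on the CD103+CD11b- arrays. Like the 4 members above, it passed as higher than in both CD11b+ subsets (2.58 and 2.21) and as lower than in CD103+CD11b- DCs (-1.47). Tlr3, a receptor for double-stranded RNA, averaged 9.32 ± 0.49 in CD103-CD11b- DCs and passed in the same 3 comparisons (2.34, 2.82 and -1.39). Rab7b, Naaa, Ppt1, Cd36 and Cxcr3 did so as well.

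Snx22 and Gpr33 lay between the same poles but missed the threshold against the CD11b+ subsets. Snx22, a sorting nexin, averaged 5.72 ± 0.11 in CD103-CD11b- DCs and 8.18 ± 0.54 in the CD103+CD11b- subset, and Gpr33, a chemoattractant receptor gene, averaged 6.05 ± 0.72 and 9.16 ± 0.20 in the same order. Both were lower in CD103-CD11b- than in CD103+CD11b- DCs (-2.46 and -3.11). Against the CD103+CD11b+ and CD103-CD11b+ subsets the differences were 0.99 and 1.07 for Snx22 (adjusted p = 0.0132 and 0.0152) and 1.29 and 1.48 for Gpr33 (adjusted p = 0.0154 and 0.0128), with no overlap between arrays. Batf3, a transcription factor required for cDC1, ran between 8.72 and 9.54 over all 15 arrays and passed in none of the comparisons tested. Over the 17 genes of this list that could be placed on the linear scale, the median was 21.0%, beside 23.7% for the members. The sort gene Itgae is among the 17 and had the lowest position (-31.4%). Gcsam, chosen here after its value was seen, had the highest position of the 17 (107%) and did not pass against CD103+CD11b- DCs (0.07, adjusted p = 0.908).

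Genes of the cDC2 lineage were present in the same arrays. Of 17 measured, 12 passed between CD103-CD11b- and CD103+CD11b- DCs, all of them higher in the double-negative subset. Sirpa, which encodes the receptor SIRPα, averaged 9.46 ± 0.19 on the CD103-CD11b- arrays, 9.96 ± 0.16 on the CD103+CD11b+ arrays, 10.06 ± 0.14 on the CD103-CD11b+ arrays and 6.07 ± 0.28 on the CD103+CD11b- arrays, and was higher than in the last by 3.39 (adjusted p = 4.4e-09). Against CD103+CD11b+ DCs 8 cDC2 genes were lower and 1, Csf1r, was higher. The genes that passed here, Sirpa and Itgam among them, stand in the study's lists of genes of the CD11b+ subsets. Those lists were drawn on these arrays with CD103+CD11b- DCs in the contrast, and Itgam encodes the CD11b of the sort. These counts and the Sirpa difference are thus not independent evidence. Flt3, a growth factor receptor of DCs, was at 9.94 ± 0.21 in CD103-CD11b- DCs and between 9.47 and 10.09 on average in the other DC subsets, and none of 13 pan-DC genes passed between CD103-CD11b- DCs and any other DC subset, by limma. Of all genes, only 0.356% to 1.61% passed as higher and 0.451% to 1.05% as lower in these comparisons. With shares this low, the lack of calls is not a result about the 13 genes.

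Markers of other cells also moved with CD103-CD11b- DCs, and their part in the differences of the members was not tested. Of 11 plasmacytoid DC markers, 7 passed as higher against the CD103+CD11b+ subset, 4 against CD103-CD11b+ and 5 against CD103+CD11b- cells, among them Ly6d in all 3 comparisons (9.57 ± 0.45 in CD103-CD11b- DCs and at most 7.67 on average in the other DCs). The mean of this list was 7.05 to 7.21 on the CD103-CD11b- arrays and 5.80 to 6.39 on the other DC arrays. Plasma cell markers gave list means of 8.96 to 9.83 on the CD103-CD11b- arrays, 7.77 to 8.06 on the CD103+CD11b+ arrays, 8.0 to 8.55 on the CD103-CD11b+ arrays and 7.19 to 7.37 on the CD103+CD11b- arrays. Of these 11 genes, 4, 1 and 9 passed as higher in the same order. Mzb1, a chaperone of antibody-secreting cells, averaged 10.53 ± 0.78 in CD103-CD11b- DCs and 6.85 ± 0.30 in the CD103+CD11b- subset. Mzb1 and Prdm1 of the plasma cell list, and Spib and Ccr9 of the plasmacytoid list, stand in the study's lists. Those were drawn on these arrays with CD103+CD11b- DCs in the contrast, so the calls of these genes are not independent evidence.

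Of 14 B cell markers, 4, 1 and 4 passed as higher against the other DC subsets in that order and 1, Bank1, was lower against the first of them, with list means of 5.49 to 5.65 on the CD103-CD11b- arrays and 4.63 to 5.32 on the other DC arrays. Of 16 T cell markers, 2, 1 and 4 were higher, Cd8b1 in each case, with list means of 5.31 to 5.57 and 4.59 to 5.30. Within CD103-CD11b- DCs, macrophage markers were highest on replicate 1, with a list mean of 7.07, beside 6.05 on the lowest array. The list mean was 7.12 to 7.46 on the CD103-CD11b+ arrays and 10.21 to 10.36 in mϕ. Against CD103-CD11b+ DCs 0 macrophage markers passed as higher and 2 as lower. Pancreatic acinar RNA was highest on CD103-CD11b- replicate 2, at 8.41 against 5.33 and 6.12 on the others. Xcr1, Clec9a, Cadm1, Cd8a, Ly75 and Clec1a were each lowest on replicate 2 within this population. The same array had its highest plasma cell list mean (9.83). Every member was likewise lowest on CD103+CD11b- replicate 2, the array of that subset richest in pancreatic RNA (8.69). In the other populations the array richest in pancreatic RNA was lowest for only part of the members. The part of other RNA in these signals was not tested.

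**Figure D4:**
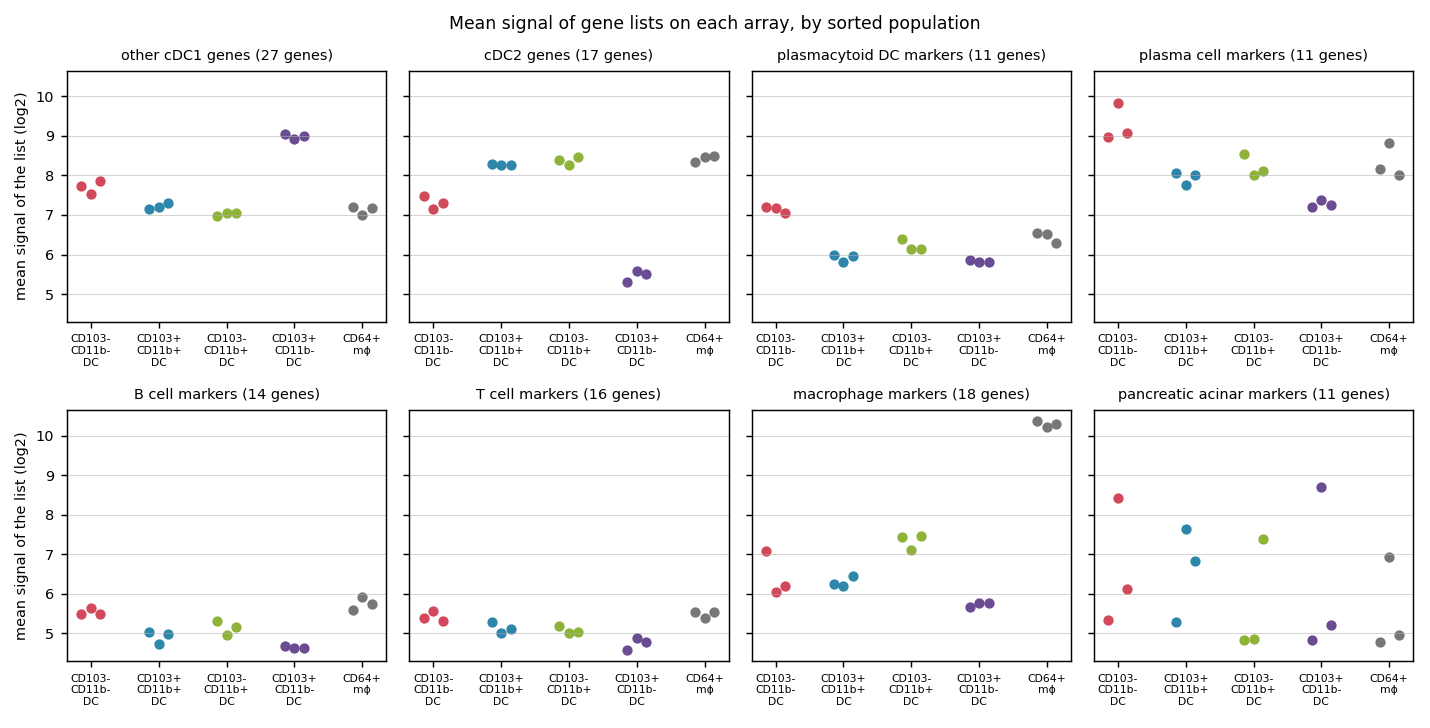
Mean log2 signal (y axis) of 8 gene lists (panels) on each array (points) of the 5 populations (x axis). The CD103-CD11b- arrays lie between the other DCs for cDC1 and cDC2 genes and above them for plasmacytoid DC and plasma cell markers (7.05 to 7.21 and 8.96 to 9.83), and 1 or 2 arrays of each population stand out for pancreatic RNA.

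Known ligands and signalling partners of the members were also compared. Of 11 measured, Cd8b1 alone passed against the CD11b+ subsets, as higher in both comparisons. Of all genes, 0.908% passed as higher against CD103+CD11b+ DCs and 0.356% against CD103-CD11b+ DCs. Against the CD103+CD11b- subset 3 of the 11 passed, Cd8b1, Siglecg and Syk, all higher, beside 1.61% of all genes. Siglecg, a receptor on which CD24 acts, averaged 7.62 ± 0.19 in CD103-CD11b- DCs and 6.38 ± 0.09 in the CD103+CD11b- subset and was higher by 1.23 (adjusted p = 7.6e-05). Syk, the kinase through which DNGR-1 signals, averaged 8.14 ± 0.15 in CD103-CD11b- DCs and 7.10 ± 0.03 in the CD103+CD11b- subset and was higher by 1.05 (adjusted p = 2.3e-05). Siglecg and Syk both stand in the study's list of genes shared by the CD11b+ subsets. The CD103+CD11b- arrays took part in that choice, so these differences are not independent evidence. Xcl1, the ligand of XCR1, ran between 5.21 and 7.46 over all arrays and passed in none of the 4 comparisons of CD103-CD11b- DCs.

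The difference between CD103+ and CD103- DCs was larger among CD11b- than among CD11b+ DCs for 4 members. The interaction, which is the difference among CD11b+ DCs minus that among CD11b- DCs, was -2.85 for Cadm1 (SE 0.43, adjusted p = 8.9e-04), -2.05 for Clec9a (adjusted p = 0.00403), -1.68 for Btla (adjusted p = 4.6e-04) and -1.49 for Cd8a (adjusted p = 0.0039). Of all genes 0.893% passed in this direction and 1.08% in the other. For Clec9a the difference of CD103+ minus CD103- DCs was -0.73 among CD11b+ DCs and 1.32 among CD11b- DCs. For Cadm1 the same differences were 0.07 and 2.92. Xcr1 did not pass (-1.66, adjusted p = 0.0141), nor did Ly75, for which CD103+ DCs were higher on both sides (1.16 and 1.96). The count fell to 2 without CD103-CD11b- replicate 2, CD103-CD11b+ replicate 1, or CD103+CD11b- replicate 1 or 3, and to 1 when the array with the most pancreatic RNA was dropped from each population, when Cadm1 alone passed. Since the CD103+CD11b- arrays and both CD11b+ subsets enter the interaction, it too is not independent of how the members were chosen.

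**Figure D5:**
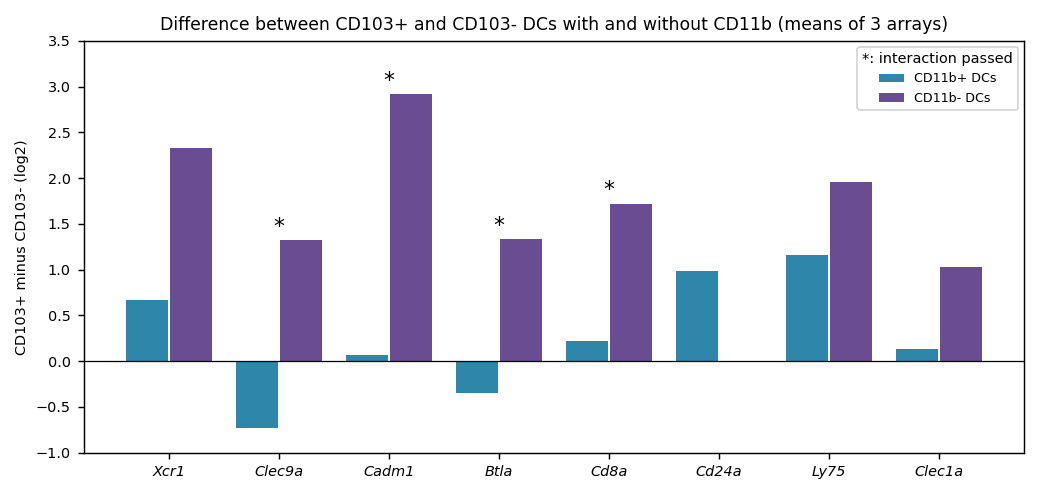
Log2 difference of CD103+ minus CD103- DCs (y axis, means of 3 arrays per population) for each member (x axis) among CD11b+ DCs (left bars) and CD11b- DCs (right bars); an asterisk marks members whose interaction passed. Cadm1 has the widest pair (0.07 and 2.92), and Clec9a and Btla change sign.

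The members varied together to different degrees, as a description over arrays that share their population. Over the 12 DC arrays Pearson's r with Xcr1 was 0.980 for Cd8a, 0.969 for Btla, 0.956 for Clec9a, 0.943 for Cadm1, 0.942 for Clec1a, 0.822 for Ly75 and 0.719 for Cd24a. All members except Cd24a stand in the study's list of CD103+CD11b- genes, which the CD103+CD11b- and CD11b+ arrays helped to choose. Their high r values, and the lower value of Cd24a, are thus not independent evidence. With the mϕ arrays included, r between Xcr1 and Cadm1 was 0.484, and r between Cadm1 and Cd24a was -0.273, against 0.549 over the 12 DC arrays. The genes most like a member over all 15 arrays, among genes whose highest population mean was over 6, were by Pearson Gnb4, Gpr141b and Naaa for Xcr1 (r = 0.977, 0.976 and 0.973) and Ifi205, Ffar4 and Gpr141b for Clec9a (r = 0.977, 0.966 and 0.961). Ffar4, Gpr141b and Arhgap21 were closest to Cd8a (r = 0.973, 0.972 and 0.969), and Cyfip2, Cd200 and Rfx7 to Btla (r = 0.983, 0.974 and 0.970). Gpr141b, an orphan receptor gene, averaged 8.64 on the CD103-CD11b- arrays, 5.94 on the CD103+CD11b+ arrays, 5.42 on the CD103-CD11b+ arrays, 10.27 on the CD103+CD11b- arrays and 5.82 on the mϕ arrays.

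Cadm1 was most like Lima1, P3h2 and Trpm2 (r = 0.976, 0.973 and 0.969), which were likewise high in both CD103+CD11b- DCs and mϕ. Ly75 was most like Rtl8c, Wdr86 and Cdk14 (r = 0.980, 0.973 and 0.964), and Clec1a was most like Snx22, Clasp1 and Ppef2 (r = 0.968, 0.958 and 0.958). Cd24a was most like Strbp, Plp2 and Spint2 (r = 0.980, 0.956 and 0.953), but over the 12 DC arrays these fell to 0.866, 0.621 and 0.664.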

How the data were processed

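The 5 populations of lamina propria cells, 3 arrays each, were analysed on Affymetrix whole-transcript mouse arrays. The authors amplified the same amount of total RNA from each sample, so differences in RNA per cell were removed before normalization, and deposited log2 signals made by RMA (background correction, probeset summary, log2 and quantile normalization). The processing notes name RMA without a version. Probesets of 1 gene symbol were kept through the platform annotation (21789 of 35556; 1621 had several and 12146 were not listed), and of a gene's probesets the one with the highest mean was taken, leaving 19938 genes. The number of arrays limits the precision, and replicate arrays correlated at 0.978 to 0.995.

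Differences were tested over all genes with limma 3.58.1 in R 4.3.3 (lmFit, eBayes, Benjamini-Hochberg). Comparisons with CD103-CD11b- DCs or mϕ and the interaction used all 15 arrays, and comparisons among the other 3 DC subsets used their 9 arrays. The tests were checked on simulated data. Tables were made with Python 3.11.15 and pandas 2.3.3. Named genes are the 8 members, Itgae, Itgam and Fcgr1, up to 4 genes per list with the widest range of population means (8 for other cDC1 genes), and the 3 genes most like each member; genes outside this rule (Ppt1, Cd36, Cxcr3, Gcsam, Batf3, Cd3d, Cd3e and Clec12b) were named after their values were seen. The members and lists were chosen with earlier results of these data known. Alternatives were another probeset rule, cyclic loess, a limit on dim genes, a variance trend, weights per array, a looser adjusted p (0.05), the treat test, the methods' t-test, other arrays in the fit, the replicate number as a block, leaving out arrays, and for likeness Spearman (lowest 0.654, Clec9a with Gpr141b) or the DC arrays alone.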

Additional observations from a re-analysis of the deposited data

Results flagged for a closer look

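Of the 8 members, 4 were marked because the difference between CD103+ and CD103- DCs was unequal with and without CD11b, by the limma interaction term. The interaction was -2.05 for Clec9a, -2.85 for Cadm1, -1.68 for Btla and -1.49 for Cd8a on the log2 scale. For all 4 the difference between CD103+ and CD103- DCs was the more positive among CD11b- DCs. Of all genes, 0.893% passed in this direction and 1.08% in the other. The CD103+CD11b- and CD11b+ arrays helped to choose these members, so the calls are not independent evidence. Without the array of each population richest in pancreatic RNA, Clec9a, Btla and Cd8a no longer passed (limma adjusted p = 0.0417, 0.0186 and 0.0386). Cadm1 kept its call in every fit that left out 1 array, and lost it under treat (adjusted p = 0.0873).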

How the results depend on the processing

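The counts of members that passed were 4, 4, 7, 7, 5, 3, 7, 1 and 4 for CD103-CD11b- DCs against the CD103+CD11b+ subset, the CD103-CD11b+ subset, the CD103+CD11b- subset and mϕ, for these 3 subsets against mϕ in that order, for CD103+CD11b+ against CD103-CD11b+ DCs, and for the interaction. Of 1816 values of a member under an alternative, 1700 kept their direction and side of the threshold, 88 no longer passed, 17 newly passed and 11 changed sign. Against a log2 difference of 1 (treat) 1, 1 and 2 members passed for CD103-CD11b- DCs against the other DC subsets, 0 between the CD11b+ subsets and 0 in the interaction. Of all 19938 genes, treat called 48, 11 and 116 in the first 3 comparisons, 9 between the CD11b+ subsets and 33 in the interaction. The adjusted t-test called 0, 1, 0 and 83 of all genes for CD103-CD11b- DCs against the other DC subsets and mϕ. It called 421 for CD103+CD11b- DCs against mϕ and 0 between the CD11b+ subsets. By the methods' t-test, after adjustment, 0 members passed in each comparison except CD103+CD11b- DCs against mϕ (5), while at an unadjusted p under 0.05 it gave 7, 8, 7 and 8 of the 8 members for CD103-CD11b- DCs, beside 14.7%, 9.83%, 16.6% and 20.2% of all genes. Between the CD11b+ subsets 2 passed after cyclic loess, and without the array of each population richest in pancreatic RNA 0 passed there and 1 in the interaction; the cause was not tested.

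Leaving out 1 array at a time gave 4 to 4, 4 to 5, 5 to 7, 7 to 8, 4 to 5, 3 to 3, 7 to 7, 0 to 2 and 2 to 5 members in the same order. Between the CD11b+ subsets the count was 0 without CD103-CD11b+ replicate 3, and 2 without CD103-CD11b+ replicate 1 or CD103+CD11b+ replicate 3. Values near 0 changed sign. For Cd24a between CD103-CD11b- and CD103+CD11b- DCs (0.00) these were -0.02 with array weights, -0.03 without the pancreatic-rich arrays and -0.05 to 0.04 without 1 array. For Cd8a between CD103-CD11b+ DCs and mϕ (0.00) they were 0.14, 0.13 and -0.16 to 0.1. Cadm1 between the CD11b+ subsets (0.07) ran from -0.09 to 0.17 without 1 array.

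With the replicate number as a block, the counts were 4, 4, 7, 7, 5, 3, 7, 1 and 4, as without it. In the labels the samples share only a number. Of 30 pairs of the same number 18 correlated over 0.1 in their deviations from the group means (mean r 0.12, range -0.09 to 0.38). Pairs of other numbers had a mean r of -0.06. Whether arrays of the same number were prepared together is not stated in the labels.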
